A study of Rattus norvegicus with 6 samples.

Results

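Mitochondrial ribosomal proteins were taken as the protein-coding rows of the deposited gene table whose name begins with Mrpl (large subunit) or Mrps (small subunit) followed by a number. That rule gave 76 of 33589 rows, 46 Mrpl and 30 Mrps genes, and used no measured value. The table spells mrpl9, mrpl11 and mrpl24 in lower case, so these 3 genes fell outside the rule and are given separately. The RNA was from mesenchymal stem cells (MSCs) of rat bone marrow, which can form bone, cartilage and fat. For 48 h the cells grew inside an SA hydrogel (the abbreviation is the submitters'). The gel was soft (2 kPa) in 3 libraries and stiff (18 kPa) in 3, and both groups were grown in low-glucose medium with serum and antibiotics. The sources used here give no strain, sex or age of the rats, and do not say whether replicates are separate cultures or rats. The series' design text speaks of quadruplicate samples, while 3 libraries per gel were analysed here. P-values therefore measure the spread between these libraries, which may be technical.

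Mitochondria carry ribosomes of their own, which translate the few messenger RNAs of the mitochondrial genome, all of them for subunits of the respiratory chain and ATP synthase. The ribosomal RNAs come from the mitochondrial genome, but every protein of the mitoribosome is encoded in the nucleus, made in the cytosol and imported. Some of these proteins have counterparts in bacterial ribosomes and others are found only in mitochondria. In the names, Mrps18a and Mrps30 belong by structure to the large subunit, and Mrps36 is now known as a component of the 2-oxoglutarate dehydrogenase complex rather than of the ribosome.

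FPKM is a read count divided by gene length and by library size. Read counts worked back from these values totalled 14966354 to 16711527 per library, of which the 76 genes took 0.161% to 0.178%. Mesenchymal markers were present, with 11 of 12 over the level filter of a mean of 1 FPKM. Lepr, at a mean of 0.12 FPKM, was under it. The 12 summed to 8539 to 9481 FPKM in soft and 9440 to 10458 in stiff gel. Most of that sum was Col1a1 and Col3a1, at means of 3320 and 4478 FPKM over the 6 libraries. Of 14 leukocyte and macrophage markers, 13 were found by name and 11 were tested. By the limma test described below, 2 of the 11 were lower (Cd68 and Cd53) and 1 higher (Adgre1) in stiff gel. Over all genes 1.43% were called. The unadjusted p was under 0.05 in 5 (45.5%), against 15.4% of all genes. All stiff libraries lay below all soft ones in 4 (Cd68, Cd53, Lyz2 and Tyrobp; 36.4%, against 10.9% of all genes) and above in 1 (9.09%, against 11.7%). The list summed to between 433.0 and 439.0 FPKM in soft and between 381.4 and 411.0 in stiff libraries. None of these 13 was at 0 in every library, and C1qa and C1qb averaged under 1 FPKM over the 6 libraries. Their part in the values below was not tested, and in bulk RNA fewer cells of a type and less RNA per cell cannot be told apart. All 5 endothelial and all 3 erythroid markers found averaged under 1 FPKM over the 6 libraries. On the first principal component of all tested genes, the most distant library was soft replicate 1.

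The mitoribosomal genes lay at middling levels, and their spread from gene to gene was far larger than any difference between gels. Over the 73 genes that passed the level filter, the median of the mean level was 16.7 FPKM, against 10.1 FPKM over all 12713 genes tested. Of the 73, 65 lay between 5 and 60 FPKM. Mrpl33, a small protein of the large subunit, was the highest. It was at 149.2, 184.7 and 182.3 FPKM in soft replicates 1 to 3 and at 172.1, 191.4 and 209.3 FPKM in stiff replicates 1 to 3. The groups overlapped, and its gene model is the shortest of the set at 236 bases. Mrpl17 followed with a mean of 108.8 FPKM, then Mrpl23 (61.1), Mrpl52 (58.1) and Mrpl54 (56.2). Mrpl52 was at 57.1, 59.6 and 59.7 FPKM in soft and 57.1, 50.8 and 64.4 FPKM in stiff gel. Mrpl54 ranged from 48.3 to 62.2 FPKM in soft and from 47.3 to 66.8 FPKM in stiff gel. For both, the stiff libraries spanned the whole range of the soft ones. Across the 73 genes, longer genes tended to lie lower (Spearman correlation -0.632 between gene length and mean FPKM). FPKM is itself divided by gene length, so these measures are not independent. The correlation is given as a description over genes that share the same libraries.

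**Figure D1:**
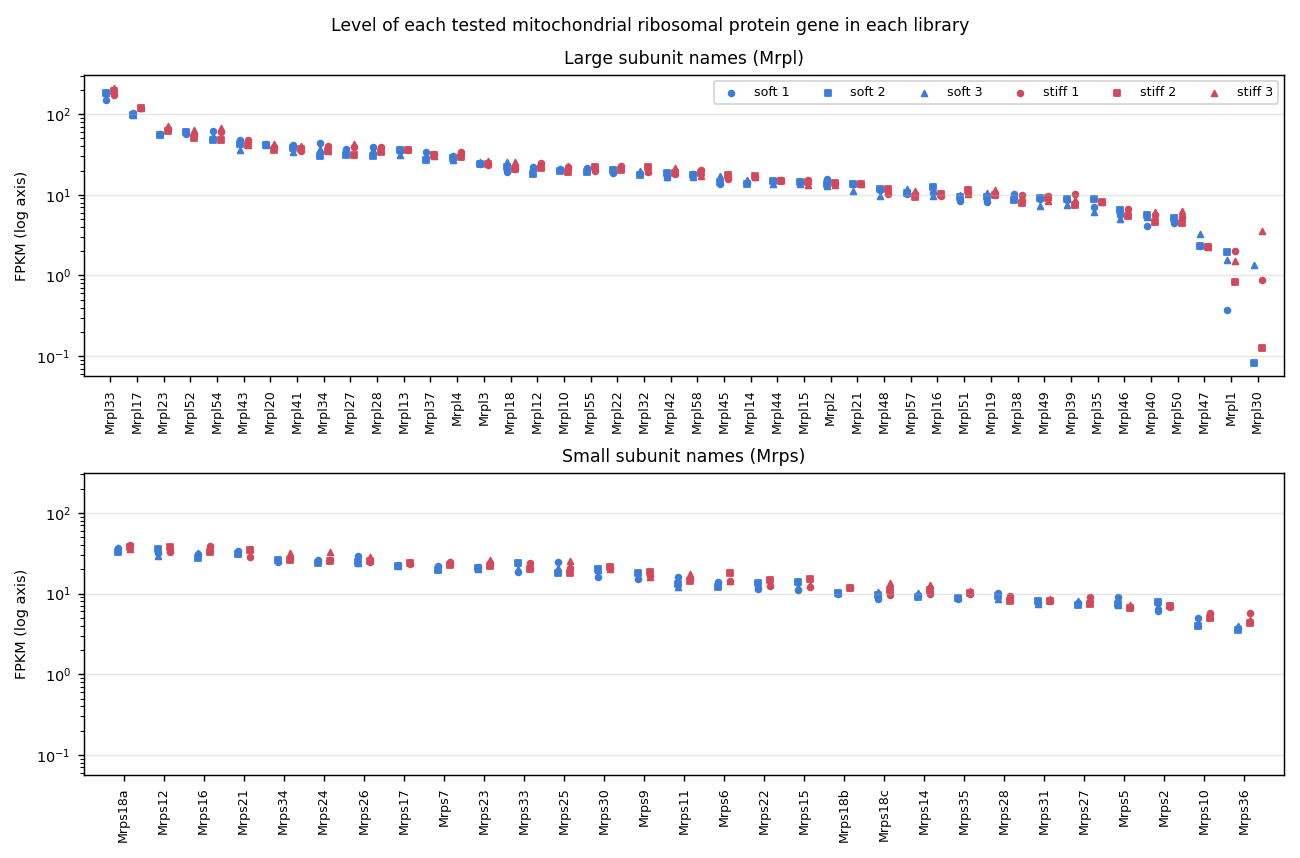
FPKM on a log axis of each of the 73 tested genes in each library, ordered by mean level within the Mrpl and Mrps names; blue marks soft, red marks stiff, and the shape marks the replicate. Genes range from Mrpl33 at a mean of 181.5 FPKM down to Mrpl1 and Mrpl30 near 1 FPKM, where libraries scatter widely (the soft replicate 1 value of Mrpl30 is 0 and is not drawn).

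At the lower end, detection was poor. Mrpl36 and Mrpl53 had 0 reads in all 6 libraries, which allows up to 3 reads in each, and neither overlaps another gene in the table. Mrps21l, annotated as like Mrps21, had between 0 and 4 reads and could share reads with Mrps21. These 3 did not pass the filter. Mrpl30 passed it narrowly, at 0, 0.0833 and 1.36 FPKM in soft and 0.871, 0.127 and 3.57 FPKM in stiff gel. Its span of chromosome 9 overlaps Mitd1 on the other strand by 76963 bases, so its reads are uncertain. Mrpl1 was at 0.376, 1.98 and 1.55 FPKM in soft and 2.00, 0.836 and 1.51 FPKM in stiff gel, from 7 to 36 reads. For Mrpl30 and Mrpl1 the scatter within a gel was wider than the difference between gels. Mrpl47, the counterpart of bacterial L29, was next at a mean of 2.45 FPKM.

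The comparison of stiff with soft gel asks whether stiffness around the cells moved these genes. Most of them lay slightly higher in stiff gel, and a single one passed the test. With limma on log2(FPKM + 1), Mrpl17 rose, which is 1 of 73, or 1.37% of the tested members. Over all 12713 genes tested the share of calls was 1.43%, and the share called higher was 1.01%, so the members' share of calls was near the background. No member fell, against 0.425% of all genes. An unadjusted p under 0.05 was reached by 10 of the 73 (13.7%), against 15.4% of all genes. Of the 73 members, 61 (83.6%) had a log2 fold change above 0, against 50.4% of all genes. The median log2 fold change was 0.10, against 0.0013 over all genes, and the middle of the distribution ran from 0.04 to 0.17 (quartiles). Stiff libraries lay above all soft ones in 13 members (17.8%; 11.7% of all genes) and below all soft ones in 1 member, Mrpl47 (1.37%; 10.9% of all genes). The median standard error of a member's log2 fold change was 0.09, close to the median change itself, so a change of this size in a single gene was mostly not detectable with 3 libraries a group.

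**Figure D2:**
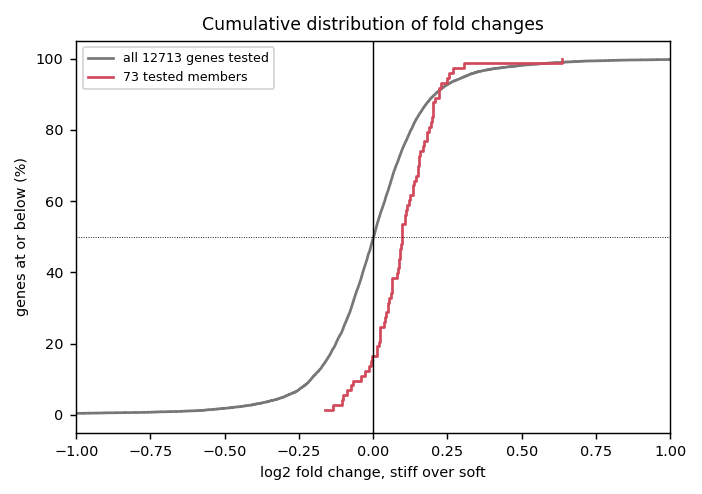
Cumulative share of genes (%) at or below each log2 fold change of stiff over soft, for all 12713 genes tested (grey, drawn between -1 and 1) and the 73 tested members (red). The red curve crosses 50% at 0.10 and the grey curve at 0.0013, and the red curve starts at -0.16.

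The summed level of the 76 genes was 1636, 1607 and 1609 FPKM in soft replicates 1 to 3 and 1729, 1684 and 1822 FPKM in stiff replicates 1 to 3. The groups did not overlap, and the means of 1617 ± 16.3 and 1745 ± 70.6 FPKM (SD, n = 3 per group) stood at a ratio of 1.08. Without the most abundant pair, Mrpl33 and Mrpl17, the sums overlapped, at 1325 to 1384 FPKM in soft and 1373 to 1494 FPKM in stiff gel (ratio 1.07). The summed FPKM of all genes was also higher in stiff gel, at 467372 to 478304 against 452787 to 457306. As a share of that sum the members took 0.361%, 0.352% and 0.352% in soft and 0.370%, 0.359% and 0.381% in stiff libraries. On this scale the groups overlapped, since soft replicate 1 lay above stiff replicate 2. With each library scaled to the same FPKM sum the members' median log2 fold change was 0.05, with 52 of 73 above 0, while the median of all genes was -0.04. Stiff replicate 3 held the highest value of 30 of the 73 members, and without it the members' median was 0.08. Each soft library held the lowest value of 19 members, and the stiff libraries 3, 12 and 1.

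**Figure D3:**
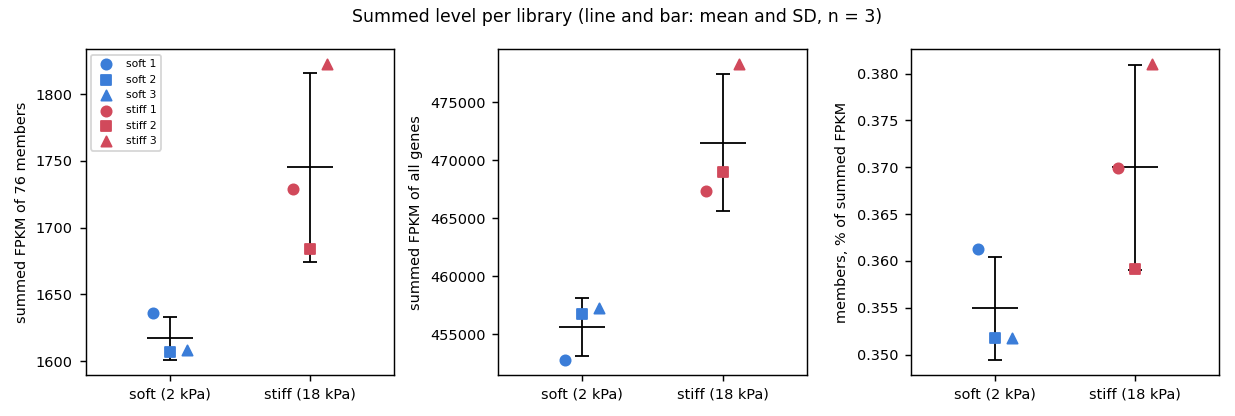
Left, summed FPKM of the 76 members per library; middle, summed FPKM of all genes; right, the members as a percentage of that sum. Points are libraries, lines and bars are the mean and SD of 3 libraries, and the axes do not start at 0; the stiff libraries lie above the soft ones on the left and in the middle, while on the right soft replicate 1 (0.361%) lies above stiff replicate 2 (0.359%).

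Mrpl17 is a large subunit protein with a bacterial counterpart, L17, and sits at the side of the subunit where the nascent chain leaves. It was at 102.3, 97.2 and 96.2 FPKM in soft replicates 1 to 3 and at 118.5, 119.8 and 118.6 FPKM in stiff replicates 1 to 3. All stiff libraries lay above all soft ones, and the stiff values lay close together. The libraries of a gel differed by less (2.18% of the mean) than counting error alone would give (2.47%). The means were 98.5 ± 3.26 and 119.0 ± 0.760 FPKM (SD, n = 3 per group), a ratio of 1.21 (log2 fold change 0.27, SE 0.0469, limma adjusted p = 0.0460). Between 1463 and 1856 reads per library stood behind these values. Mrpl17 (ENSRNOG00000019497) spans 170652294 to 170653920 of chromosome 1 on the minus strand; the table states no build for its coordinates. The call was close to the threshold: it was kept in 5 of 17 alternative analyses, and the adjusted p ran from 0.00591 to 0.209 over them. It was lost when libraries were scaled to equal sums (0.0913) or quantile-normalized (0.117), with the length trend removed (0.0599), with the replicate number as a block (0.0792), and without each library in turn except soft replicate 1 (0.138 to 0.209). It was also lost without the level filter (0.0603), without the intensity trend (0.107) and with voom (0.0524). The log2 fold change stayed between 0.20 and 0.30 throughout.

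The promoter of Mrpl17 is shown because it belongs to the member that passed the test. Those of Mrpl33 and Mrps18b belong to the most abundant member and to the member with the next smallest p. That of Mrpl46 is shown because its window shares 267 bases with that of Mrps11. NRF1, ETS factors such as GABP, and YY1 are transcription factors known for binding promoters of nuclear genes for mitochondrial proteins, and the E-box is the site of MYC and its relatives. Each window holds the 250 bases before and the 50 after the annotated start in RefSeq, build GRCr8, 5′ to 3′ along the gene. Capitals mark matches, on either strand, to the letters GCATGCG (NRF1 core), CCGGAAG (ETS core), AGATGGC (YY1 core) or CACGTG (E-box). Overlapping matches on both strands count as 1 stretch. Mrpl17 (chr1:169575650-169575949, minus strand) has NRF1 core stretches that begin 54 and 16 bases before the start. Mrpl33 (chr6:30553938-30554237, minus strand) has an ETS core that begins 9 bases before the start. Mrps18b (chr20:2842756-2843055, plus strand) has, in order, an E-box, an NRF1 core, an ETS core across the start and a YY1 core. Mrpl46 (chr1:142116981-142117280, minus strand) has a YY1 core that begins at base 26 of the transcript. The Mrps11 window does not reach that core and has no match to any of these motifs.
Mrpl17: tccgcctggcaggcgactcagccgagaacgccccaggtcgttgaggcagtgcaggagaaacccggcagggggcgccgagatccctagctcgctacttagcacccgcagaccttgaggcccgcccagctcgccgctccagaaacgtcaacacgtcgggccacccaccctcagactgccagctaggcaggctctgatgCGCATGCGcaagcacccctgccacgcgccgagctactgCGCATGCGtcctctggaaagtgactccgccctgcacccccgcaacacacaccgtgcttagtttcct
Mrpl33: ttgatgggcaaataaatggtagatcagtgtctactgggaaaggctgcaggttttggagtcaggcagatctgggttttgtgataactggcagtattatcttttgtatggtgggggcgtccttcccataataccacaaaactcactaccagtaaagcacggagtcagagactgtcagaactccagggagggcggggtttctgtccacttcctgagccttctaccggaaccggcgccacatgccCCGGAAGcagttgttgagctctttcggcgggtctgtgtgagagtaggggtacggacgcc
Mrps18b: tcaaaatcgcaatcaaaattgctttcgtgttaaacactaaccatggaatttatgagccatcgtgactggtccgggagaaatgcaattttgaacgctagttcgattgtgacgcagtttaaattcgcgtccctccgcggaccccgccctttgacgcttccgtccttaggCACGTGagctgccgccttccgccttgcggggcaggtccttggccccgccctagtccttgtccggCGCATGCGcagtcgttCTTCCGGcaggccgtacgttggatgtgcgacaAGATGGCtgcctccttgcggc
Mrpl46: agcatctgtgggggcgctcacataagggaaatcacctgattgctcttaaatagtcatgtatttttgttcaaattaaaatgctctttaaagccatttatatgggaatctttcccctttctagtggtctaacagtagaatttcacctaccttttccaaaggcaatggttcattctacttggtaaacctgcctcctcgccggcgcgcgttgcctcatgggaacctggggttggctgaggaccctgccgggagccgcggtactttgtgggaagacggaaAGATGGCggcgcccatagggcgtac

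Of 33469 promoters listed, only the first for each of 27457 symbols was searched. Promoters were matched by symbol for 60 of the 76 genes. Not matched were Mrpl13, Mrpl15, Mrpl16, Mrpl19, Mrpl21, Mrpl35, Mrpl38, Mrpl43, Mrps12, Mrps21l, Mrps22, Mrps24, Mrps28, Mrps34, Mrps35 and Mrps36. The ETS core was present in 21 of the 60 (35%), against 18.9% of the 8661 tested genes with a promoter and 9.22% of the 27457 symbols. The YY1 core was present in 15 (25%), against 8.37% and 6.71%. The NRF1 core was present in 6 (10%), against 6.74% and 3.54%, and the E-box in 6 (10%), against 9.69% and 6.65%. The 6 genes with an NRF1 core were Mrpl10, Mrpl17, Mrpl22, Mrpl32, Mrpl44 and Mrps18b, and Mrpl17 and Mrpl32 had 2 stretches each. Among the tested members, the median log2 fold change was 0.12 in the 14 with a YY1 core, of which 14 lay above 0, and 0.08 in the 44 without it, of which 35 did. It was 0.12 in the 6 with an NRF1 core and 0.09 in the 52 without, and 0.10 both in the 19 with an ETS core and in the 39 without. For the E-box it was 0.20 in the 5 with it, of which 5 lay above 0, and 0.09 in the 53 without, of which 44 did. These are matches of letters and medians, given as a description; no difference between them was tested.

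**Figure D4:**
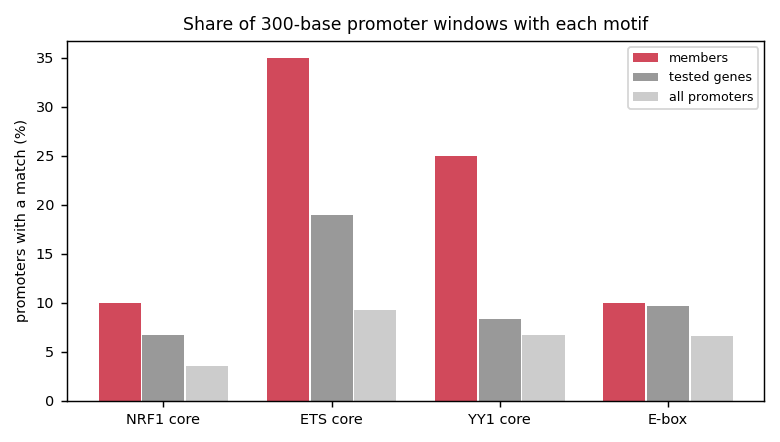
Percentage of 300-base promoter windows that hold a match to each motif, for the 60 members with a window (red), the 8661 tested genes with a window (dark grey) and all 27457 windows (light grey). The ETS and YY1 cores stand at 35% and 25% in the members, above both backgrounds, while the E-box stands near that of the tested genes.

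In the large subunit, the stalk recruits translation factors and is built on Mrpl10 and Mrpl11 with copies of Mrpl12, the counterpart of bacterial L7/L12. Mrpl12 was at 21.8, 18.3 and 21.8 FPKM in soft and 24.95, 21.7 and 22.8 FPKM in stiff gel (0.16 in log2 fold change; adjusted p = 0.453), with overlapping groups. Mrpl10 was at 20.6 ± 0.842 and 21.3 ± 1.67 FPKM (0.04, adjusted p = 0.840), and -0.0054 at equal FPKM sums. The row spelled mrpl11 was at 16.5, 15.8 and 15.8 FPKM in soft and 18.0, 17.6 and 20.4 FPKM in stiff gel (0.20, adjusted p = 0.237). Its stiff libraries all lay above the soft ones without passing the test. The other lower-case rows, mrpl9 and mrpl24, had log2 fold changes of 0.04 and 0.05.

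Genes for proteins at the polypeptide exit and its membrane side, among them Mrpl45, which tethers the ribosome to the inner membrane, summed to between 218.9 and 222.2 FPKM in soft and between 248.1 and 261.1 in stiff gel over 8 genes. Mrpl17 was the 1 called gene of these 8 and the most abundant of them. Of the 8, 7 lay above 0 with a median of 0.11, while among all genes 1.43% were called and 50.4% lay above 0. From soft to stiff, the mean sum of the 8 went from 220.4 to 254.6 FPKM and the mean of Mrpl17 from 98.5 to 119.0. Mrpl17, already picked out by the test, thus supplied much of the rise in the sum. Whether the group moved apart from Mrpl17 was not tested. Mrpl23, the counterpart of L23 beside the exit, was at 57.4, 55.6 and 57.1 FPKM in soft and 64.6, 61.5 and 70.2 FPKM in stiff gel (0.20, adjusted p = 0.187). Its groups did not overlap. Mrpl45 was at 15.1 ± 1.93 and 17.2 ± 1.31 FPKM (0.18, adjusted p = 0.443). Mrpl47 went the other way, at 2.31, 2.30 and 3.27 FPKM in soft and 2.29, 2.27 and 2.28 FPKM in stiff gel (-0.13, adjusted p = 0.668). The soft values of Mrpl47 differed among themselves by more than they did from the stiff ones, and its span overlaps Actl6a on the other strand by 1443 bases.

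The central protuberance is the crown of the large subunit that faces the small one. It gave 8 tested genes with none called, 7 above 0 and a median of 0.07. Over all genes 1.43% were called and 50.4% lay above 0, and 83.6% of the tested members lay above 0. Mrpl27, the most abundant of these 8, was at 33.9 ± 2.67 and 37.6 ± 5.88 FPKM (0.14, adjusted p = 0.634). Mrpl18 was at 22.2 ± 3.26 and 22.5 ± 2.84 FPKM (0.02, adjusted p = 0.955), and its sign turned at equal FPKM sums (-0.02). Mrpl58, a peptidyl-tRNA hydrolase built into the ribosome, was at 17.4 ± 0.790 and 18.7 ± 1.66 FPKM (0.10, adjusted p = 0.603). The lowest large subunit changes after Mrpl47 were Mrpl16 at 10.8 ± 1.40 and 10.0 ± 0.364 FPKM (-0.10, adjusted p = 0.661) and Mrpl20 at 41.7 ± 0.912 and 39.2 ± 3.21 FPKM (-0.09, adjusted p = 0.586). Both overlapped between gels.

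Among the Mrps names, 27 of 29 tested genes lay above 0 with a median of 0.12, against 34 of 44 and 0.09 among the Mrpl names. The 29 include Mrps18a and Mrps30 of the large subunit, and Mrps36, all above 0. By structure, 14 of 16 small subunit genes with a bacterial counterpart and 10 of 10 without lay above 0. The difference between the names or between the subunits was not tested. None of the 29 passed the test, nor did any with voom on recovered reads. Their unadjusted p was under 0.05 in 7 (24.1%), with Mrps36 among these. Among the Mrpl names the unadjusted p was under 0.05 in 3 of 44 (6.82%), and over all genes in 15.4%. Mrps16, a bacterial-type protein of the small subunit body, was at 31.0, 27.9 and 31.99 FPKM in soft and 39.4, 33.1 and 36.6 FPKM in stiff gel (0.26, adjusted p = 0.213). Mrps6, the counterpart of S6, was at 13.7, 12.2 and 12.7 FPKM in soft and 14.3, 18.0 and 14.4 FPKM in stiff gel (0.25, adjusted p = 0.297). In both genes the lowest stiff library stood just over the highest soft one. Mrps7, the counterpart of S7, was at 20.7 ± 1.12 and 24.1 ± 1.06 FPKM (0.21, adjusted p = 0.197) and passed the test with array weights (0.0356). Its span overlaps Gga3 on the other strand by 772 bases. Mrps36 was at 3.74, 3.49 and 3.98 FPKM in soft and 5.72, 4.30 and 4.64 FPKM in stiff gel (0.31, adjusted p = 0.249). Its change was the largest of the set after Mrpl30, and it is the member whose product is no longer counted as ribosomal.

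Both small subunit names below 0 had bacterial counterparts. Mrps5 was at 8.99, 7.47 and 7.16 FPKM in soft and 6.80, 6.71 and 7.21 FPKM in stiff gel (-0.16, adjusted p = 0.466), with soft replicate 1 highest and overlap between the other libraries. Mrps28 was at 9.36 ± 0.770 and 8.63 ± 0.638 FPKM (-0.11, adjusted p = 0.606). Mrps12, whose bacterial counterpart S12 guards the accuracy of decoding, was at 32.4 ± 3.25 and 35.3 ± 2.41 FPKM (0.12, adjusted p = 0.547). All 10 small subunit genes without a bacterial counterpart lay above 0, with a median of 0.10, and none passed the test. Over all genes 50.4% lay above 0 and 1.43% were called. Mrps34, needed for small subunit stability, was at 25.6 ± 0.832 and 28.5 ± 3.29 FPKM (0.14, adjusted p = 0.477), and Mrps26 at 25.9 ± 3.03 and 26.3 ± 1.91 FPKM (0.02, adjusted p = 0.937), below 0 at equal FPKM sums (-0.02).

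Mammals carry a set of S18 paralogs, of which Mrps18c takes the place of bacterial S18, Mrps18b sits elsewhere on the small subunit, and Mrps18a is on the large one. Mrps18b was at 9.91, 10.0 and 10.2 FPKM in soft and 11.6, 11.6 and 11.95 FPKM in stiff gel (0.20, SE 0.0579, adjusted p = 0.168). The groups lay well apart, and the libraries of a gel differed by less (1.64% of the mean) than counting error alone would give (5.06%). Mrps18c was at 8.62, 9.66 and 10.3 FPKM in soft and 9.63, 11.01 and 13.7 FPKM in stiff gel (0.23, adjusted p = 0.441). Mrps18a, the most abundant of the Mrps names, was at 35.6 ± 2.09 and 37.9 ± 2.42 FPKM (0.09, adjusted p = 0.605), and its span overlaps Rsph9 on the other strand. Mrps18c and Mrps18a overlapped between gels.

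**Figure D5:**
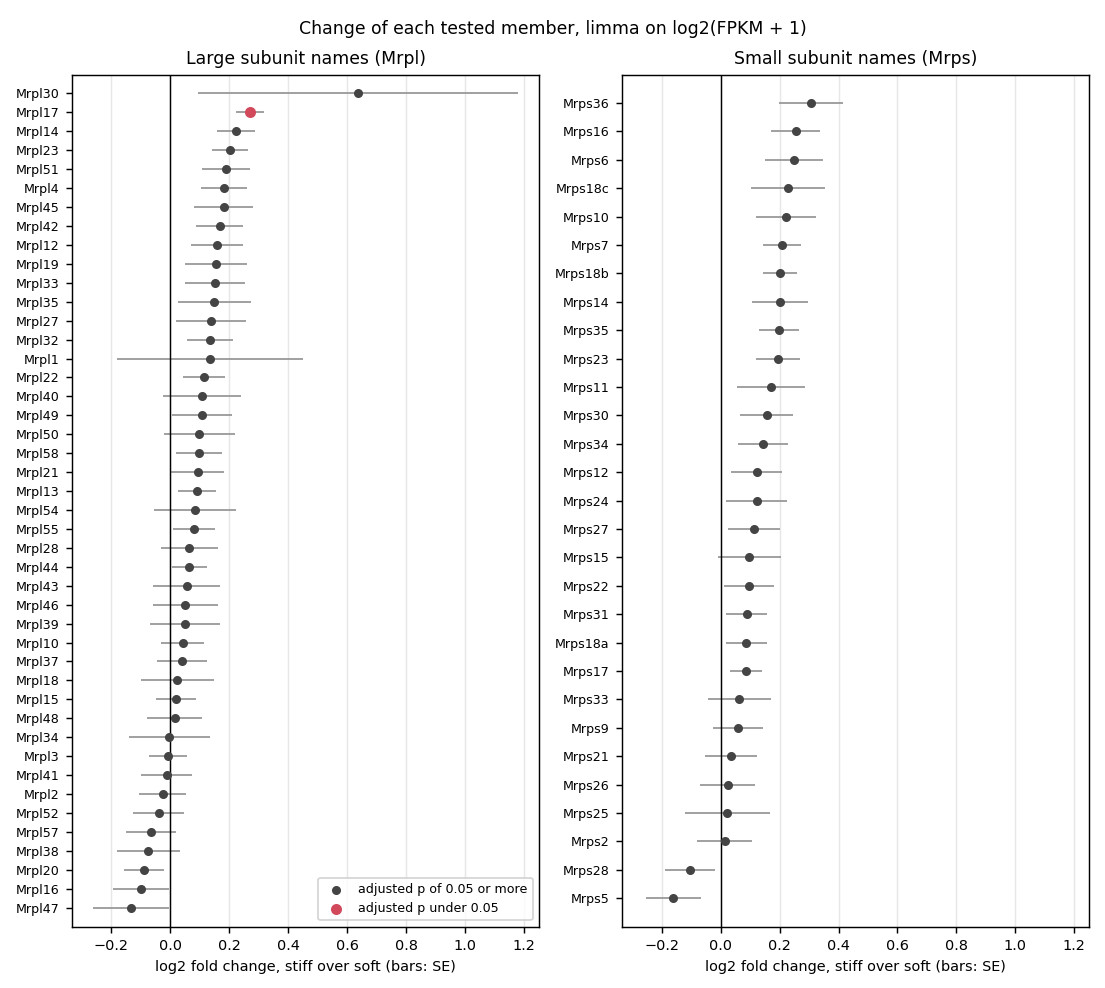
Log2 fold change of stiff over soft for the 44 tested Mrpl and 29 tested Mrps genes, with bars for the standard error from limma; the red point passed an adjusted p of 0.05. Mrpl17 at 0.27 is the red point, 34 of 44 Mrpl and 27 of 29 Mrps genes lie above 0, and Mrpl30 at 0.64 has the widest bar.

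Variation between libraries of a gel was modest. The median coefficient of variation of FPKM within a group was 8.56% over the 73 members, against 8.97% over all genes, and the median expected from counting reads alone was 5.41%, from a median of 326.5 reads per gene and library. Intervals from counting cover counting error only. Many of these genes share their upstream region with another gene. In the table, 16 of the 76 (21.1%) had a protein-coding neighbour on the other strand that starts within 1000 bases upstream, against 9.39% of tested protein-coding genes. Mrpl46 and Mrps11 form such a pair with each other, 72 bases apart on chromosome 1. Mrps11 was at 13.7 ± 1.95 and 15.5 ± 1.68 FPKM (0.17, adjusted p = 0.524) and Mrpl46 at 5.68 ± 0.716 and 5.92 ± 0.660 FPKM (0.05, adjusted p = 0.877). Mrps11 lay well above Mrpl46 in level, and neither passed the test. Mrps12 lies 16 bases from Sars2, the mitochondrial seryl-tRNA synthetase gene, at log2 fold changes of 0.12 and -0.06. Mrpl47 lies 266 bases from Ndufb5, a complex I subunit gene, at -0.13 and 0.09. Neither partner passed the test. Of all 76, 12 overlap a gene of the table. The sources used here do not say how counting treated strand, so the values of these 12 are uncertain; the members' median was 0.11 without them.

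Mitoribosomal proteins that carry other names gave no call with limma or voom, and none reached an unadjusted p of 0.05. Of the 6 names listed, 5 were found, with 3 above 0 and a median of 0.00144. Ict1, the name not found, is an older name of Mrpl58, which is counted among the members. Genes were searched by name only. Dap3, a GTP-binding small subunit protein, was at 21.1, 21.3 and 21.8 FPKM in soft and 20.7, 21.8 and 21.7 FPKM in stiff gel (0.0014, adjusted p = 0.994). Its values were almost the same in both gels. Aurkaip1 was at 59.2, 55.7 and 59.4 FPKM in soft and 53.9, 52.8 and 54.3 FPKM in stiff gel (-0.11, adjusted p = 0.356), with all stiff libraries lower. Chchd1 (0.13, adjusted p = 0.522), Gadd45gip1 (0.10, adjusted p = 0.582) and Ptcd3 (-0.09, adjusted p = 0.753), a pentatricopeptide protein, overlapped between gels. Summed, these 5 genes stood at 141.9 to 150.8 FPKM in soft and 144.3 to 150.0 in stiff gel.

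The machinery around the mitoribosome also gave no call, against 1.43% of all genes. An unadjusted p under 0.05 was reached by 15.4% of all genes. Of 14 translation factor genes none passed with limma, none reached an unadjusted p of 0.05, and 9 lay above 0 with a median of 0.03. Tufm, the elongation factor that brings tRNAs, was at 32.8, 29.7 and 28.7 FPKM in soft and 34.0, 31.4 and 31.7 FPKM in stiff gel (0.09, adjusted p = 0.588). Oxa1l, which inserts new proteins into the inner membrane, was at 34.3 ± 1.53 and 34.0 ± 0.929 FPKM (-0.0091, adjusted p = 0.963). Of 29 genes for ribosome assembly and rRNA processing 26 were tested, none passed, and 14 lay above 0 with a median of 0.01. The unadjusted p was under 0.05 in 1 (3.85%), Malsu1, at 15.2 ± 1.11 and 18.3 ± 1.20 FPKM (0.25, adjusted p = 0.190). Clpp, a matrix protease subunit, was at 25.9 ± 0.965 and 25.4 ± 1.03 FPKM (-0.03, adjusted p = 0.873), and Dhx30, an RNA helicase, at 22.3 ± 0.478 and 20.9 ± 0.624 FPKM (-0.09, adjusted p = 0.477). Of 18 genes for mitochondrial transcription and its regulators 16 were tested, none passed, and 9 lay above 0 with a median of 0.03. The unadjusted p was under 0.05 in 3 (18.8%), namely Myc, Tefm and Polg. Myc was at 15.7, 13.0 and 13.7 FPKM in soft and 17.7, 18.3 and 17.9 FPKM in stiff gel (0.33, adjusted p = 0.107). Tefm was higher in stiff gel (0.35, adjusted p = 0.288) and Polg lower (-0.17, adjusted p = 0.314). Esrra, a nuclear receptor of mitochondrial genes, was at 42.6 ± 3.63 and 39.1 ± 4.09 FPKM (-0.12, adjusted p = 0.592). Yy1 was at 37.5 ± 2.56 and 37.8 ± 2.14 FPKM (0.01, adjusted p = 0.965), with the sign turned at equal FPKM sums (-0.04). With voom, 0 genes of these 3 lists passed.

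The templates of the mitoribosome come from the 13 protein-coding genes of the mitochondrial genome. Log2 fold changes lay above 0 in 13 of 13, against 50.4% of all genes, with a median of 0.17. None of the 13 passed limma's test, against 1.43% of all genes. None had an unadjusted p below 0.05, against 15.4% of all genes. They summed to between 19208 and 28067 FPKM in soft and between 25697 and 30184 in stiff gel. Soft replicates 2 and 3, at 28067 and 26846 FPKM, lay within the stiff range. The lowest of these sums belonged to soft replicate 1, which had 2.15% of its reads in the mitochondrial genome, against 2.85% to 3.33% in the other libraries. The soft replicate 1 sum of the mitoribosomal proteins was in contrast the highest of the soft group.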

How the data were processed

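PolyA RNA of 6 libraries was analysed, 3 per gel stiffness, grouped by title. The table deposited by the authors holds FPKM per gene. Tools in the submitters' processing notes are HTSeq, Cufflinks 2.1.1 and Bowtie 0.12.9, with the mouse builds mm10 and GRCm38, although the rows carry rat identifiers; the table names no build. FPKM times the gene length given per gene in the table was a whole multiple of a single step in 100% of values (within 0.0001), so reads were recovered for depth, checks and voom. The test was limma 3.58.1 (R 4.3.3) on log2(FPKM + 1) over genes averaging 1 FPKM or more, with a term for group alone and an intensity trend, two-sided, with Benjamini-Hochberg adjustment over all genes at 0.05. Changes of low genes are understated on this scale, and ratios in the text are of mean FPKM. An exact permutation test of 3 against 3 libraries reaches p = 0.1 at best. The procedure was tested on simulated data. No pair of libraries in a group agreed within sampling noise (chi-square per degree of freedom of 3.57 or more).

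Members and gene lists were chosen with earlier results of these data known. Genes given with values were those past the test, the 5 largest changes each way, the 5 highest and 3 lowest levels, members under the filter, the stalk, the S18 paralogs, subunits named otherwise, and per list up to 4 called genes or else the 2 most abundant. Mrps7, Mrpl45, Mrpl58, Mrps11, Mrpl46, Malsu1, Myc, Tefm, Polg and the lower-case rows were added after their values were seen. Alternatives changed the pseudocount (0.1 or 0.5), filter (none, or 5 FPKM), scaling, variance model, weights, length trend and block, and left out each library. Promoters came from RefSeq.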

Additional observations from a re-analysis of the deposited data

How the results depend on the processing

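As deposited, 182 genes and 1 member passed the test, with a members' median of 0.10 and 61 members above 0. The 182 were 128 higher and 54 lower in stiff gel, against 88 and 68 at equal FPKM sums and 103 and 68 after quantile normalization. Without the level filter 92 genes and 0 members passed. Without the intensity trend the counts were 112 and 0, with array weights 685 and 2 (Mrpl17 and Mrps7), and with voom on recovered reads 317 and 0. No member passed at equal FPKM sums (0 members, median 0.0511), after quantile normalization or with the length trend removed. With that trend removed 57 of 73 members lay above 0, and their median was 0.0721 (0.00127 over all genes). The median gene length was 1149 bases in the tested members and 2190 over all genes tested. With the replicate number as a block 105 genes and 0 members passed; same-numbered libraries had correlations of deviations of 0.06, 0.12 and -0.08, so the numbers were not taken to pair the libraries, and soft replicate 1 correlated best with stiff replicate 3 (0.14). Leaving out 1 library gave 26 (without stiff replicate 1) to 159 genes (without soft replicate 1), 0 to 1 members, a median of 0.08 to 0.13 and 56 to 62 members above 0. With the 3 lower-case rows 64 of 76 lay above 0; this alternative and the one without overlapping genes were chosen after seeing the data. The causes of these shifts were not tested. Among the genes given with values, log2 fold changes near 0 that turned sign, none of them past the test, were, at equal FPKM sums, Dap3 (-0.0458), Mrpl10 (-0.00544), Mrpl18 (-0.0234), Mrps26 (-0.0237), Yy1 (-0.0374) and mrpl9 (-0.00964). After quantile normalization they were Dap3 (-0.00567) and Yy1 (-0.0096), and with voom Dap3 (-0.0136) and Yy1 (-0.00529). With array weights they were Clpp (0.0219), Dap3 (-0.0272) and Mrpl18 (-0.118), and with the length trend removed Dap3 (-0.0097), Mrpl18 (-0.00361), Mrps26 (-0.00383) and Yy1 (-0.0137). Over fits that left out 1 library, Dap3 ran from -0.0115 to 0.0252, Mrpl1 from -0.201 to 0.356, Mrpl18 from -0.0811 to 0.123, Mrpl52 from -0.125 to 0.0434, Mrpl54 from -0.0234 to 0.221, Mrps26 from -0.0351 to 0.114, Oxa1l from -0.043 to 0.0191, Yy1 from -0.0276 to 0.0636 and mrpl9 from -0.0165 to 0.0796. Counting error was 20.2% for Mrpl1 and 14.4% for Mrpl30, below their spread within a gel (52.2% and 138.7%). The cause of that spread was not tested. The 3 genes under the filter had 0 to 4 reads per library, which allow no comparison. Why their counts were so low was not tested.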
